A study of Mus musculus with 48 samples.

Results

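The collagen genes were taken as every transcript row whose symbol was Col, a number, the letter a and a further number, whatever its level. The rule found 43 genes among 24264 transcript rows, measured in 48 libraries of 20 conditions. Each of the 43 had at least 1 read in some library, 36 had at least 100 reads over all libraries and 17 at least 1000. After the filter on low counts 37 were tested, and Col4a3, Col4a4, Col11a2, Col13a1, Col19a1 and Col28a1 were too low to test.

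The libraries follow mouse embryonic fibroblasts (MEFs) turned into induced pluripotent stem cells (iPSCs) by a doxycycline-inducible cassette that carries c-Myc, Klf4, Oct4 and Sox2 in the order MKOS or OKMS. Each cassette, with an mOrange reporter and a CAG-driven rtTA, sat in an intron of Sp3 in TNG embryonic stem cells (ESCs), a line with a Nanog-GFP reporter, and the MKOS MEFs and OKMS MEFs were taken at E12.5 from chimeric embryos made with these ESCs, so that host fibroblasts can be among them. For reprogramming, such MEFs were plated on gelatin as a small minority among WT MEFs and kept with LIF, doxycycline and vitamin C for 10 days by the design text, or for 10 or 15 days by the culture notes. Cells were sorted on E-cadherin (E-CAD), CD44, ICAM1 and Nanog-GFP, 3 libraries for each population. Cells of the 2NG- gate had none of CD44, ICAM1 and Nanog-GFP, 3NG- cells had gained ICAM1, and 3NG+ cells had gained ICAM1 and Nanog-GFP. MKOS gave E-CAD+ 2NG-, 3NG- and 3NG+ cells, and OKMS gave the same populations and E-CAD- 2NG- and 3NG- cells besides. The other 12 conditions had 2 libraries each: WT, MKOS and OKMS MEFs, established MKOS and OKMS iPSC clones without doxycycline (-dox) or in 2i, which is medium with inhibitors of MEK and GSK3, the D6 iPSC line, and TNG MKOS, TNG OKMS, TNG and E14 ESCs. Between MEFs and sorted cells the medium, the doxycycline and the stage changed together and cannot be told apart, and in such bulk libraries fewer cells of a type and less RNA per cell cannot be told apart either. Nothing in the labels ties the libraries of a group to separate cultures or embryos, so p-values measure only the spread between these libraries.

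Collagens are matrix proteins whose chains wind around each other into a stiff helix. Fibrillar collagens such as types I, III and V form the cables of connective tissue and are made above all by fibroblasts, type VI forms beaded filaments around them, and FACIT collagens such as types XII and XVI decorate the fibrils. Type IV makes the mesh of basement membranes under epithelia and vessels, and type XVIII (Col18a1), a multiplexin that carries heparan sulfate and is the source of endostatin, lies in the same membranes. Chains fold in the endoplasmic reticulum with the help of the chaperone HSP47 (Serpinh1) and of prolyl hydroxylases, which need vitamin C.

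Promoter windows are shown for Col3a1 and Col1a2, the fibrillar genes with the highest mean level, and for Col18a1, the gene with the opposite profile, which has 2 annotated starts. Each is the 250 bases before a RefSeq transcript start in build GRCm38.p6, written 5′ to 3′ on the gene's strand, and capitals mark the letters CCAAT, the letters TATAAA or the letters GGGCGG, each searched on both strands, and no match in these windows overlaps another.
Col3a1, chr1:45311288-45311537, plus strand: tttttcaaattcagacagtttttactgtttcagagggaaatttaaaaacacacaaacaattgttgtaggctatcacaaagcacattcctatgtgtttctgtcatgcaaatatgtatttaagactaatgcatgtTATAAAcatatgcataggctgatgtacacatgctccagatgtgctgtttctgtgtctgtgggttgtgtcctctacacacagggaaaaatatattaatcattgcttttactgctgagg
Col1a2, chr6:4505368-4505617, plus strand: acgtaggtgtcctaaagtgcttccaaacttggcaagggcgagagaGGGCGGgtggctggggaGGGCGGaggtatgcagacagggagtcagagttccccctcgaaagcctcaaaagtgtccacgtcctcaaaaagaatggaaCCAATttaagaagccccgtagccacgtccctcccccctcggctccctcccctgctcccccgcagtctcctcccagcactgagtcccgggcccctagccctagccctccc
Col18a1, upstream start, chr10:77166531-77166780, minus strand: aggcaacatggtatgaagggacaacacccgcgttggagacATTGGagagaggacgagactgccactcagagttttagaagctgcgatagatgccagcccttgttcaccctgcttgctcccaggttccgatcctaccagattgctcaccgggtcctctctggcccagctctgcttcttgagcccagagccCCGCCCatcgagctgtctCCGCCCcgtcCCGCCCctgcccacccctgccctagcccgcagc
Col18a1, downstream start, chr10:77113706-77113955, minus strand: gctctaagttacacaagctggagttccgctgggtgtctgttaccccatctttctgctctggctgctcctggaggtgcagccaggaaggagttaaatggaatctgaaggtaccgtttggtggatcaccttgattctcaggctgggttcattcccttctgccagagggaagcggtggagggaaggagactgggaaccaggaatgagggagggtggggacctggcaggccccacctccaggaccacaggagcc
The windows differ in base composition: that of Col3a1 had 35.2% GC, a TATAAA and no CpG, and those of Col1a2 and of the upstream Col18a1 start each had 62.0% GC and a CCAAT. The window of the downstream Col18a1 start held none of the 3 motifs. A RefSeq window was found for 35 of the 43 genes (38 windows). CCAAT occurred in 34.2% of the 38 windows against 33.9% of the windows of all 32851 starts, TATAAA in 13.2% against 12.4%, and GGGCGG in 57.9% against 32.7%, beside a median GC content of 59.0% against 52.4%. A match to these letters is a description of the window and says nothing of a factor's binding, and the counts do not say which Col18a1 start was used.

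Levels are given as CPM, the reads of a gene per 1000000 reads on transcript rows. The libraries held 1429717 to 14174725 such reads, so that 3 reads, used here as the floor of detection, correspond to 0.212 to 2.10 CPM. The libraries were made by STRT, which counts the 5′ ends of transcripts, so that a level does not scale with the length of the gene. No pair of libraries had identical counts. The MEF libraries had summed CPM of 3588 to 5295 over a list of 12 fibroblast genes and of 2.72 to 11.5 over 10 pluripotency genes, and in 3NG+ cells, iPSCs and ESCs these sums were 152 to 517 and 11026 to 23593. In 3NG+ cells and in MKOS and OKMS iPSCs without doxycycline, most of the fibroblast sum came from Fn1 and S100a4. A list of 6 macrophage genes summed to 14.6 to 232 CPM in MEFs, to 23.3 to 1801 CPM in sorted cells and to 3.64 to 25.7 CPM in iPSCs and ESCs, nearly all of it from Lyz2 (lysozyme) where the sum was high, while Emr1, Csf1r, Ptprc and Aif1 stayed at or below 11.3 CPM in every library. Among the sorted cells the libraries numbered 3 stood apart in several collagens and in Lyz2, as given with the results that rest on them.

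MEFs gave between 0.346 and 0.589% of their reads to collagens, a summed 3461 to 5887 CPM in 6 libraries. OKMS E-CAD- cells had 791 to 1193 CPM, MKOS E-CAD+ Nanog-GFP- cells 614 to 1438 CPM, and OKMS E-CAD+ Nanog-GFP- cells 210 to 518 CPM, in 6 libraries each. The OKMS E-CAD+ libraries lay below every MKOS E-CAD+ and every OKMS E-CAD- library of the Nanog-GFP- gates. In 3NG+ cells the sum was 447, 330 and 256 CPM for OKMS and 859, 157 and 482 CPM for MKOS, and in iPSCs and ESCs it was 63.6 to 349 CPM. These totals rest on few genes: the 4 with the highest means, Col3a1, Col1a2, Col1a1 and Col5a2, made up 70.1% of the summed mean level over the 20 conditions, and the top 12 made up 93.5%.

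**Figure D1:**
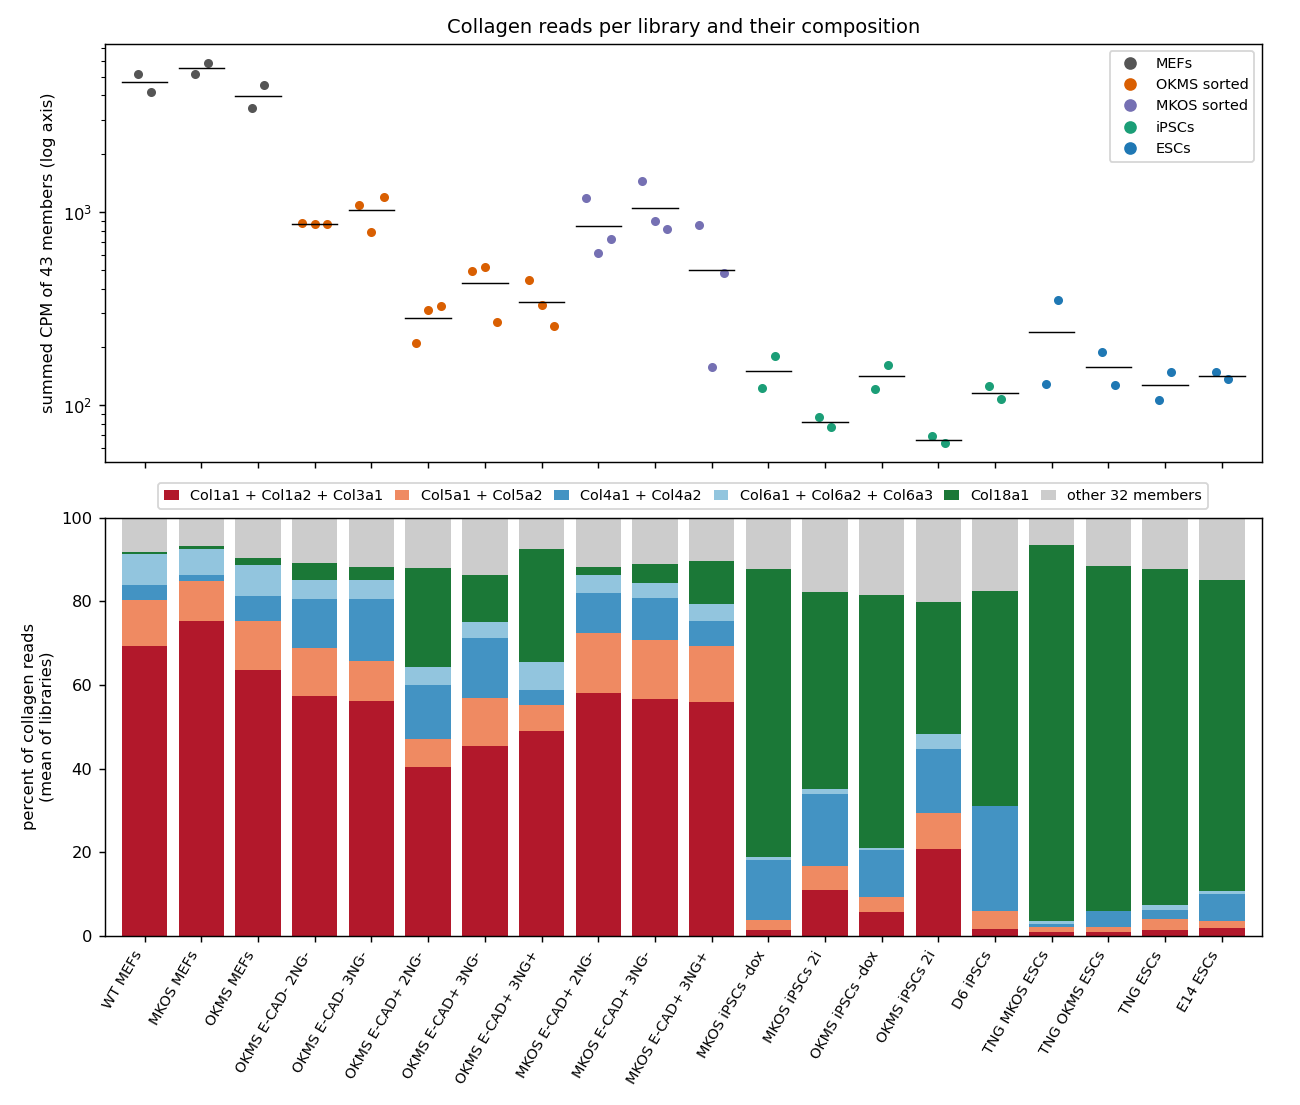
The upper panel plots the summed CPM of the 43 collagen genes (log axis) in each of 48 libraries, a point for each library and a bar for the mean of its condition, and the lower panel the mean share of collagen reads (percent) from 5 gene groups and the other 32 genes. MEFs lie between 3461 and 5887 CPM and iPSCs and ESCs between 63.6 and 349 CPM, where Col18a1 takes the place of Col1a1, Col1a2 and Col3a1 as the main part.

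The make-up of the collagen reads turned over along with the total. Col1a1, Col1a2 and Col3a1, the chains of types I and III, together gave 63.0 to 75.4% of collagen reads in MEFs, 51.3 to 67.4% in MKOS E-CAD+ Nanog-GFP- cells, 30.3 to 53.2% in OKMS E-CAD+ Nanog-GFP- cells and 0.250 to 2.05% in ESCs. The share of Col18a1 ran the other way, with 0.477 to 1.93% in MEFs and 73.0 to 91.0% in ESCs. Col4a1 and Col4a2 together gave 1.38 to 6.15% in MEFs, 6.19 to 18.3% in OKMS E-CAD- cells, 4.58 to 26.0% in iPSCs without 2i and 0.457 to 7.76% in ESCs. In iPSCs without 2i Col18a1 gave 50.7 to 74.9% and in 2i 27.7 to 52.4%, so that in every ESC and iPSC library without 2i it was the main collagen by reads.

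By class, the 11 fibrillar genes summed to 2682 to 5072 CPM in MEFs and to 6.75 to 17.5 CPM in ESCs. The 6 beaded filament genes (type VI) summed to 269 to 383 CPM in MEFs and to 1.86 to 7.29 CPM in ESCs, and the 9 FACIT genes to 134 to 259.9 CPM and 2.15 to 10.5 CPM. For the 6 basement membrane genes of type IV the sums were 119.9 to 315 CPM in MEFs and 0.880 to 11.5 CPM in ESCs, and in E-CAD- OKMS cells they still summed to 59.2 to 192 CPM. The 2 multiplexins were the class whose sum was highest in ESCs, at 83.6 to 318 CPM against 26.2 to 90.9 CPM in MEFs. The 3 short chain genes summed to 31.02 to 101 CPM in MEFs, mostly from Col8a1. The anchoring fibril gene Col7a1, the sum of the 4 transmembrane genes, and Col28a1 each stayed at or below 12.7 CPM in every library.

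**Figure D2:**
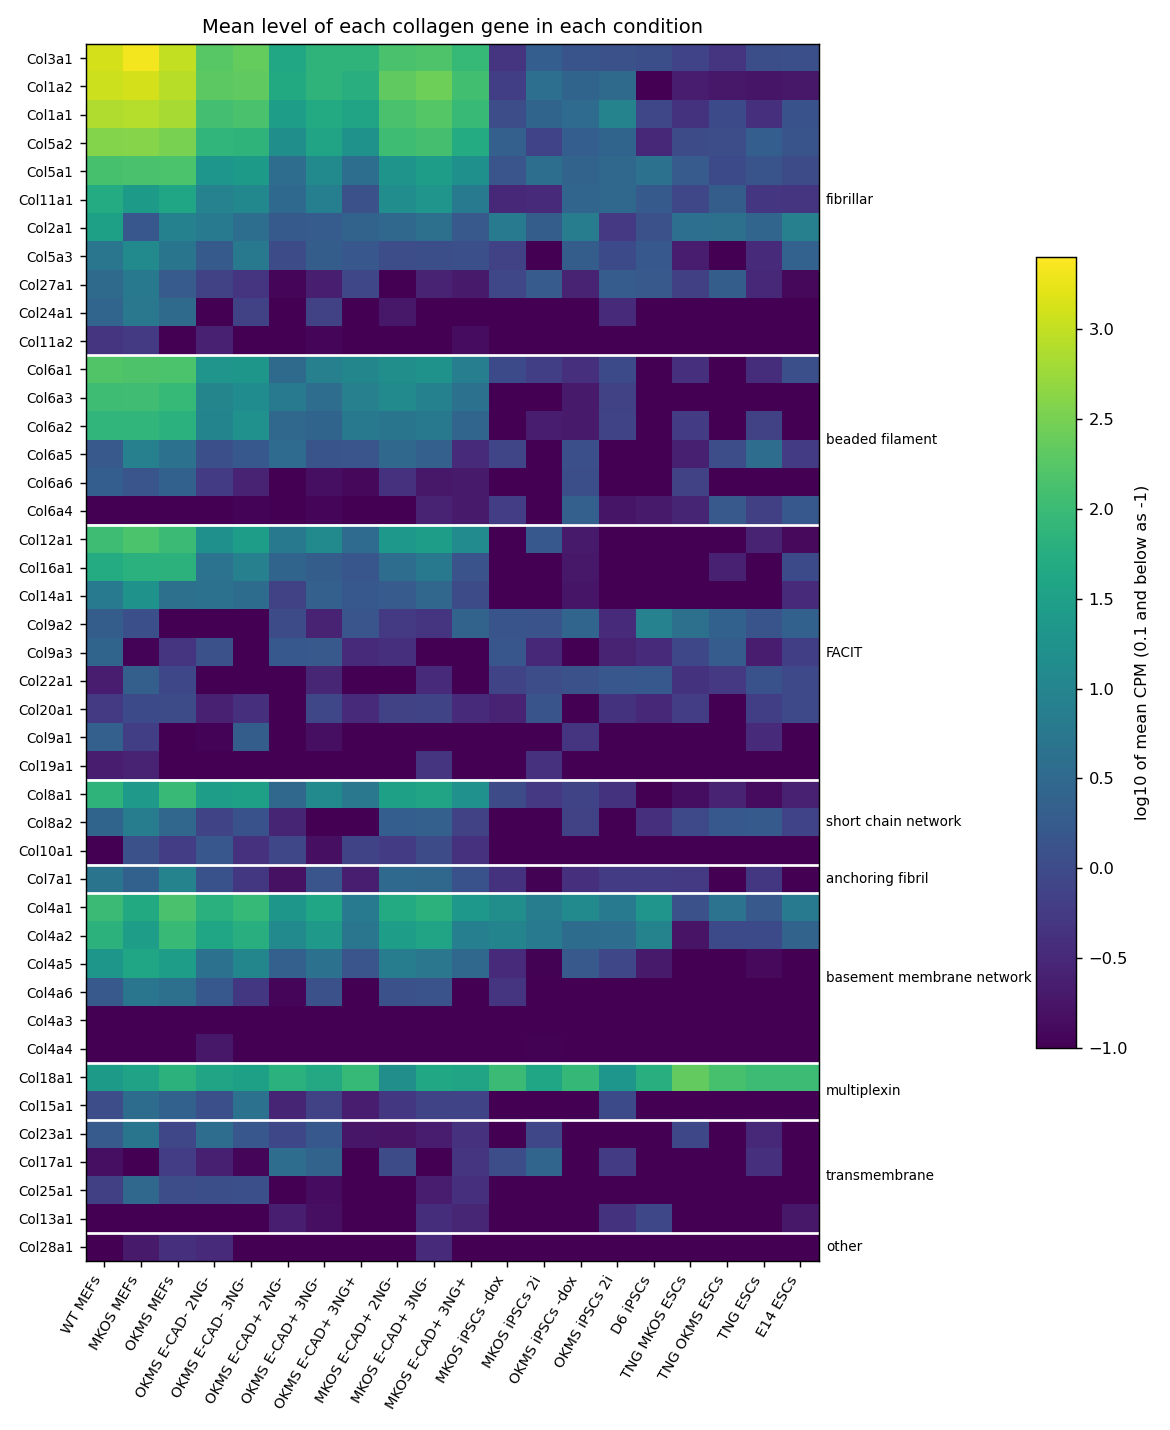
Each row is 1 of the 43 collagen genes, grouped by class with white lines between classes, each column 1 of the 20 conditions, and the colour is log10 of the mean CPM, with 0.1 CPM and below drawn as -1. Fibrillar, type VI and FACIT genes are brightest in MEFs and Col18a1 in ESCs, and rows such as Col4a3 and Col4a4 are near the floor throughout.

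Of the 43 genes 32 had their highest mean in MEFs. The exceptions were Col18a1, highest in TNG MKOS ESCs, and 10 low genes whose highest condition mean was 8.99 CPM or less: Col4a3, Col4a4, Col6a4, Col9a2, Col10a1, Col13a1, Col15a1, Col17a1, Col19a1 and Col20a1. Among them Col17a1, a hemidesmosome collagen of epithelia, was highest in OKMS E-CAD+ 2NG- cells, at 2.39, 8.06 and 0.776 CPM, and Col9a2, a chain of the cartilage collagen type IX, was highest in the D6 iPSC line, at 9.32 and 8.67 CPM, and was at or below 4.02 CPM in all but 1 of the other 46 libraries, a TNG MKOS ESC library at 8.43 CPM.

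From MEFs to ESCs of the same cassette, the end points of the series, 23 of 37 tested collagens fell and 2 rose, where 50.9% of all 15630 tested transcripts were called (25.0% lower and 26.0% higher). The fall covered 8 of 10 fibrillar genes, 4 of 4 type IV genes, 4 of 6 type VI genes and 3 of 8 FACIT genes, and the median log2 fold change of the 37 was -5.82, or -5.16 with genes that had no read in 1 group set at their bound, against 0.00 over all transcripts. Col1a2, the second chain of type I collagen, was 1209 and 1354 CPM in MKOS MEFs and 724 and 987 CPM in OKMS MEFs, against 0.293 and 0.145 CPM in TNG MKOS ESCs and 0.168 and 0.219 CPM in TNG OKMS ESCs (log2 fold change -12.13, SE 0.67, adjusted p = 4.06e-18). The ESC values are at or below the floor of 3 reads, so that the size of the fitted change is uncertain. Col3a1 (log2 fold change -11.12, SE 0.61, adjusted p = 3.15e-18) and Col1a1 (log2 fold change -10.11, SE 0.64, adjusted p = 2.21e-16) fell to at most 1.84 CPM in the same way. Col6a3, with 105 and 122 CPM in MKOS MEFs and 78.3 and 102 CPM in OKMS MEFs, had no read in the 4 ESC libraries, a level at least 1092-fold lower. Col18a1 was 114 and 318 CPM in TNG MKOS ESCs and 156 and 105 CPM in TNG OKMS ESCs, each above the 4 MEF libraries of both cassettes (log2 fold change 1.74, SE 0.25, adjusted p = 2.49e-07). The other gene called higher was Col9a2, whose libraries overlapped between the groups and whose call was lost in 5 of 8 fits with a library left out.

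Between WT MEFs and the average of the MKOS and OKMS MEFs 0 of the 37 were called by edgeR, with 0.717% of all transcripts called (0.250% higher and 0.467% lower), and 0 by DESeq2, while 4 had an unadjusted p under 0.05. Opposite shifts in MKOS and OKMS MEFs cancel in such an average, and these MEFs were not tested against each other. The level of several collagens nevertheless differed among the 3 kinds of MEFs by more than the spread of their 2 libraries. Col3a1 was 1455 and 1192 CPM in WT MEFs, 1963 and 2205 in MKOS MEFs and 949 and 1045 in OKMS MEFs. Col4a1 was lower in MKOS MEFs, at 46.6 and 47.9 CPM, than in WT MEFs at 103 and 94.96 and OKMS MEFs at 106 and 168. Col2a1, the main collagen of cartilage, stood at 41.4 and 21.00 CPM in WT MEFs, 1.13 and 1.99 in MKOS MEFs and 7.98 and 9.50 in OKMS MEFs. With 2 libraries of each kind these orders are descriptions, and they bear on the comparisons below because each cassette is set against its own MEFs.

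In MKOS E-CAD+ 2NG- cells 13 of 37 collagens were lower than in MKOS MEFs and 0 were higher, with 27.0% of all transcripts called (15.0% higher and 12% lower). The median log2 fold change of the 37 was -2.51, or -2.55 with genes at 0 reads in 1 group set at their bound (and genes under the floor in both groups left out), against 0.00 for all transcripts. Col3a1 was 1963 and 2205 CPM in MKOS MEFs and 132, 62.4 and 211 CPM in the sorted cells (log2 fold change -3.98, SE 0.50, adjusted p = 6.61e-08). Col5a1, which nucleates fibrils of type I, fell from 129 and 145 to 31.4, 13.1 and 12.2 CPM (log2 fold change -2.88, SE 0.55, adjusted p = 0.000104), and Col1a2 from 1209 and 1354 to 334, 146 and 165 CPM (log2 fold change -2.60, SE 0.48, adjusted p = 5.93e-05). None of these overlapped between the groups, and nor did Col16a1 (log2 fold change -4.11, SE 0.90, adjusted p = 0.000657), Col6a1 (log2 fold change -3.35, SE 0.82, adjusted p = 0.00175) or Col6a2 (log2 fold change -3.99, SE 1.09, adjusted p = 0.00504). Col27a1, Col25a1 and Col22a1 had 80, 41 and 24 reads in MKOS MEFs and none in the sorted cells, levels at least 47.9-fold, 23.9-fold and 16.9-fold lower, and the last 2 calls were lost whenever any library was left out.

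Col4a1, Col4a2 and Col8a1 were not called in MKOS E-CAD+ 2NG- cells. Col4a1 was 46.6 and 47.9 CPM in MKOS MEFs and 78.04, 54.5 and 16.9 CPM in MKOS E-CAD+ 2NG- cells (log2 fold change 0.04, SE 0.60, adjusted p = 1.0), and Col4a2 was 25.2 and 34.1 CPM in the MEFs and 49.99, 30.6 and 8.94 CPM in the sorted cells (log2 fold change -0.01, SE 0.64, adjusted p = 1.0). Col8a1, a short chain collagen that forms hexagonal lattices in Descemet's membrane and around vessels, was 24.1 and 23.9 CPM and 48.2, 23.3 and 22.4 CPM (log2 fold change 0.35, SE 0.65, adjusted p = 0.739). For all 3 genes the libraries overlapped, which does not show that the levels were the same. The less abundant type IV chains lay lower in every sorted library, without a call: Col4a5 was 39.7 and 38.3 CPM in the MEFs and 13.8, 4.43 and 2.57 CPM in the sorted cells (log2 fold change -2.51, SE 1.07, adjusted p = 0.0756), and Col4a6 was 8.39 and 2.44 and 2.14, 1.62 and 0.00 CPM (log2 fold change -2.17, SE 1.86, adjusted p = 0.409). Col18a1 fell, from 25.8 and 42.1 to 15.6, 19.3 and 10.7 CPM (log2 fold change -1.17, SE 0.32, adjusted p = 0.00539), and its mean there was the lowest of the 20 conditions.

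**Figure D3:**
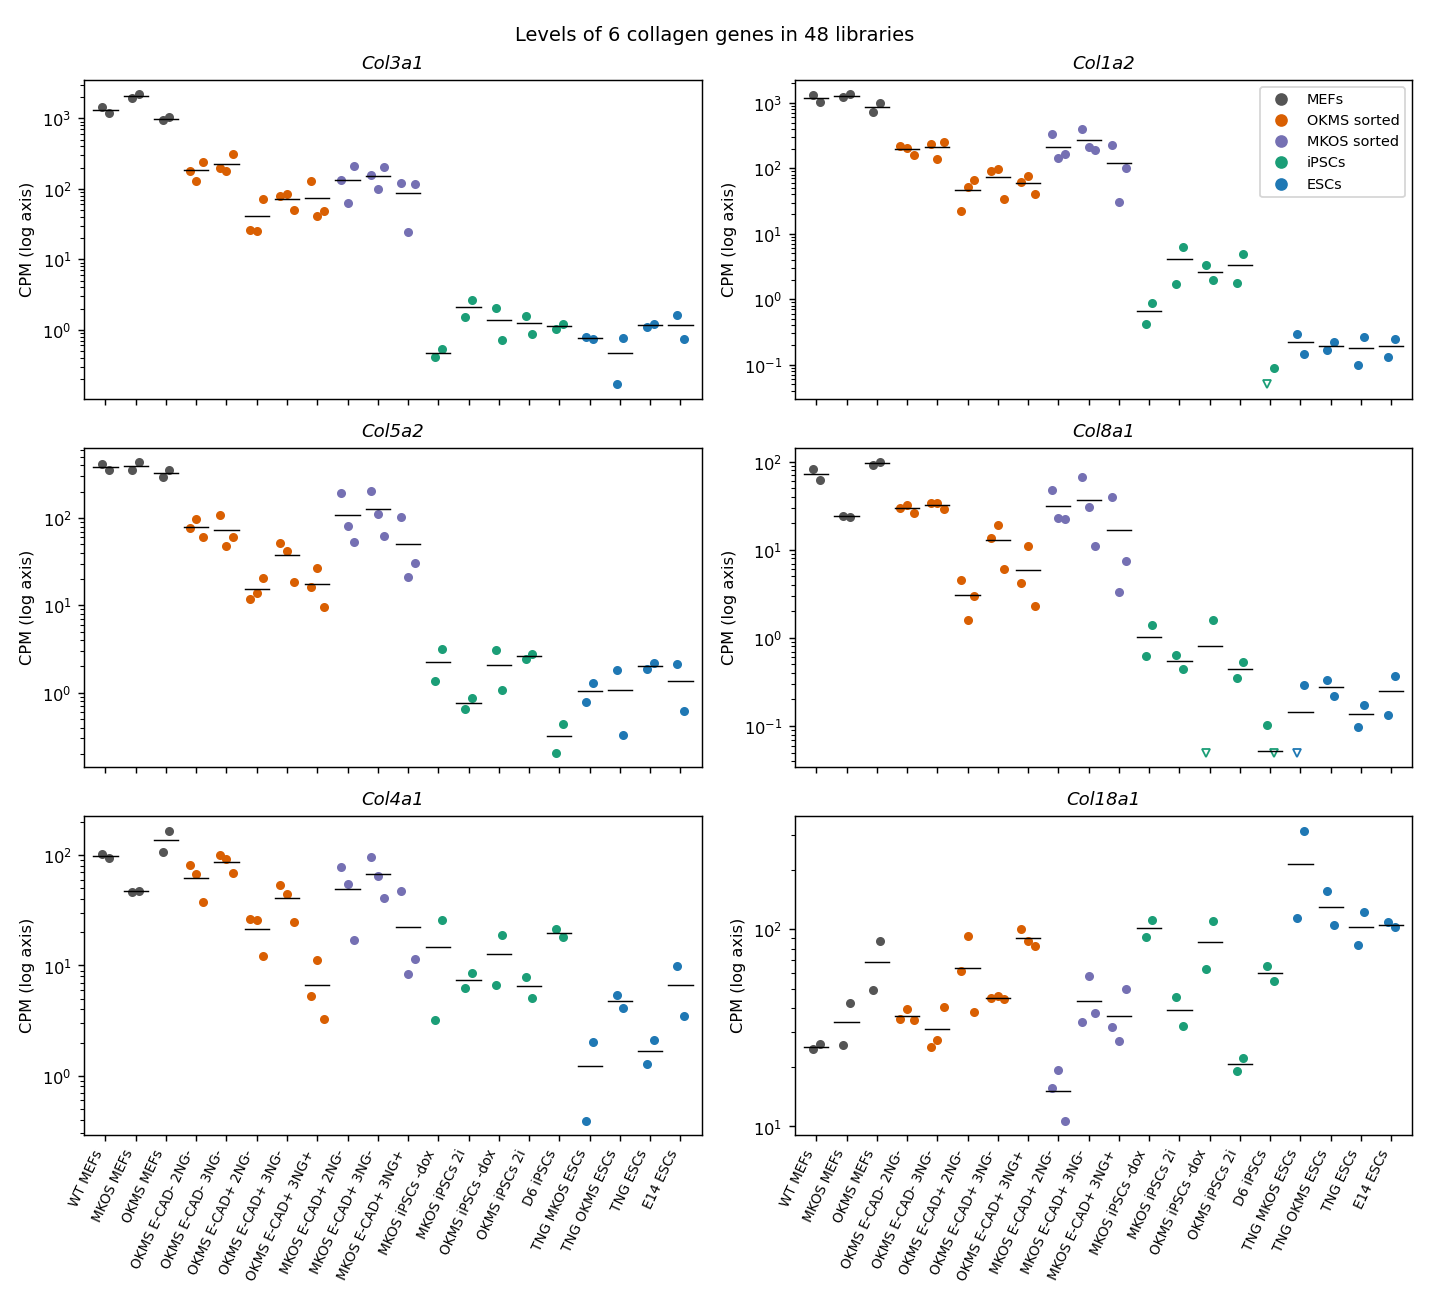
Points give the CPM of 6 collagen genes (log axes) in each library of the 20 conditions, bars the mean of a condition, and open triangles near the lower edge libraries with no read. Col3a1, Col1a2 and Col5a2 have lower means in OKMS E-CAD+ than in MKOS E-CAD+ cells of the 2NG- gate and are lowest in iPSCs and ESCs, while Col18a1 has its lowest mean in MKOS E-CAD+ 2NG- cells and its highest in TNG MKOS ESCs.

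OKMS cells of the E-CAD- 2NG- gate had 10 of 37 collagens lower than OKMS MEFs and 0 higher, beside 21.8% of all transcripts (11.7% higher and 10.1% lower), with a median of -1.83, or -1.89 with such genes at their bound. Col16a1 (log2 fold change -3.95, SE 0.91, adjusted p = 0.00147), Col6a1 (log2 fold change -2.91, SE 0.81, adjusted p = 0.00739), Col5a1 (log2 fold change -2.83, SE 0.56, adjusted p = 0.000196) and Col12a1 (log2 fold change -2.63, SE 0.63, adjusted p = 0.00184) had the largest falls, and Col1a2 went from 724 and 987 to 217, 203 and 162 CPM (log2 fold change -2.16, SE 0.48, adjusted p = 0.00078). No type IV gene was called: Col4a1 was 106 and 168 CPM in OKMS MEFs and 81.2, 67.6 and 37.99 CPM in these cells (log2 fold change -1.14, SE 0.59, adjusted p = 0.167).

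With OKMS E-CAD+ 2NG- cells the count was 17 of 37 lower and 0 higher, beside 29.2% of all transcripts (15.7% higher and 13.5% lower), and the median was -3.61, or -3.25 with genes at 0 reads set at their bound. The falls spanned 7 of 10 fibrillar, 3 of 4 type IV, 3 of 6 type VI and 2 of 8 FACIT genes, with Col7a1 and Col8a1. Col5a1 went from 118 and 169 to 1.02, 5.48 and 4.73 CPM (log2 fold change -5.14, SE 0.62, adjusted p = 2.82e-08). Col6a1 went from 132 and 152 to 0.170, 0.00 and 9.74 CPM (log2 fold change -4.97, SE 0.88, adjusted p = 3.01e-05), with a library at 0. Col8a1 went from 93.2 and 98.6 to 4.60, 1.61 and 3.03 CPM (log2 fold change -4.78, SE 0.71, adjusted p = 1.65e-06). Here Col4a1 fell as well, from 106 and 168 to 26.4, 25.8 and 12.3 CPM (log2 fold change -2.58, SE 0.60, adjusted p = 0.00101), and so did Col4a2 (log2 fold change -2.80, SE 0.64, adjusted p = 0.000848). Col24a1 (54 reads in OKMS MEFs, none in the sorted cells, at least 26.0-fold lower) and Col7a1, which anchors basement membranes to the dermis, rest on few reads: the first call was lost in 4 of 5 and the second in 5 of 5 fits with a library left out. Col18a1 was 49.4 and 87.03 CPM in OKMS MEFs and 61.5, 92.2 and 38.2 CPM in OKMS E-CAD+ 2NG- cells (log2 fold change 0.00, SE 0.32, adjusted p = 1.0), and its libraries overlapped.

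Set against the WT MEF mean, the sorted cells kept different shares of different collagens. In MKOS E-CAD+ 2NG- cells Col1a2 stood at 18.4%, Col5a2 at 28.3%, Col4a1 at 50.3% and Col6a2 at 6.4% of the WT MEF level, and the 12 fibroblast genes at a median of 7.76% (range 1.90 to 49.6%). OKMS E-CAD+ 2NG- cells had 4.0% of Col1a2, 4.0% of Col5a2 and 21.7% of Col4a1 beside a median of 4.35% for the fibroblast genes. OKMS E-CAD- 2NG- cells had 16.6% of Col1a2, 20.3% of Col5a2 and 62.9% of Col4a1 beside a median of 11%. WT MEFs were the other cells in the reprogramming wells, and the part of any fibroblasts left in a gate in these values was not tested.

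Both OKMS comparisons share the OKMS MEF libraries, and the next comparisons share the OKMS E-CAD+ libraries. Within OKMS the 2 E-CAD gates address what goes with the gain of E-cadherin. From E-CAD- to E-CAD+ cells of the 2NG- gate 6 of 37 collagens fell and 0 rose, beside 2.38% of all transcripts (1.69% higher and 0.691% lower), and the median was -1.50, or -1.49 with genes at 0 reads set at their bound, against 0.00. The 6 were Col8a1 and 5 fibrillar genes. Col8a1 was 29.8, 32.6 and 26.4 CPM in E-CAD- cells and 4.60, 1.61 and 3.03 CPM in E-CAD+ cells (log2 fold change -3.05, SE 0.65, adjusted p = 0.00459). Col5a2, which pairs with Col5a1 in type V, was 77.03, 98.2 and 60.3 CPM and 11.8, 13.9 and 20.6 CPM (log2 fold change -2.17, SE 0.49, adjusted p = 0.0072). Col3a1 was 177, 129 and 242 CPM and 26.4, 25.5 and 72.9 CPM (log2 fold change -1.93, SE 0.44, adjusted p = 0.00877). The E-CAD+ libraries lay below the E-CAD- ones for these 3 genes and for Col5a1 (log2 fold change -2.31, SE 0.56, adjusted p = 0.0135), Col1a2 (log2 fold change -1.91, SE 0.45, adjusted p = 0.011) and Col1a1 (log2 fold change -1.89, SE 0.49, adjusted p = 0.0248). The count depends on 1 library: without OKMS E-CAD+ 2NG- library 1 it was 1. The calls of Col1a1 and Col3a1 were also lost without E-CAD+ library 2, and that of Col1a1 without E-CAD- library 2. That of Col5a1 was also lost with only the libraries compared. Lyz2, the leading macrophage marker, was 689, 853 and 120.3 CPM in the E-CAD- and 232, 269 and 122 CPM in the E-CAD+ libraries, which overlapped, and its part in the result was not tested.

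In the 3NG- gate the same step called 1 of 37 collagens, with 1.75% of all transcripts called (1.59% higher and 0.166% lower). This was Col3a1, at 197, 179.6 and 311 CPM in E-CAD- and 78.5, 84.98 and 50.6 CPM in E-CAD+ cells (log2 fold change -1.57, SE 0.44, adjusted p = 0.0491). The groups did not overlap, but the call sat at the threshold and was lost by DESeq2 and when any library was left out. Col1a2 was 236, 139 and 255 and 90.9, 97.6 and 33.7 CPM (log2 fold change -1.41, SE 0.44, adjusted p = 0.104). A difference between the 2NG- and 3NG- gates in this step was not tested.

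The direct comparison of the cassettes asks where MKOS and OKMS cells of the same gate differ. In E-CAD+ 2NG- cells 6 of 37 collagens were higher in MKOS and 1 was lower, beside 5.07% of all transcripts (2.84% higher and 2.23% lower), and the median of the 37 was 1.14, or 1.15 with genes at 0 reads set at their bound, against 0.00. Of the 10 fibrillar genes 5 were higher. Col5a2 was 11.8, 13.9 and 20.6 CPM in OKMS and 192, 81.6 and 53.4 CPM in MKOS cells (log2 fold change 2.70, SE 0.49, adjusted p = 0.000394). Col1a2 was 22.2, 51.9 and 65.7 and 334, 146 and 165 CPM (log2 fold change 2.11, SE 0.45, adjusted p = 0.0027), with Col1a1 (log2 fold change 2.12, SE 0.49, adjusted p = 0.00546) and Col5a1 (log2 fold change 2.26, SE 0.55, adjusted p = 0.00932) alike in direction. The calls of Col1a1 and Col5a1 were lost without OKMS E-CAD+ 2NG- library 1, and that of Col5a1 also without MKOS library 1 and with only the libraries compared. Col8a1 had the largest difference, 4.60, 1.61 and 3.03 against 48.2, 23.3 and 22.4 CPM (log2 fold change 3.19, SE 0.65, adjusted p = 0.0017). Libraries overlapped for Col3a1 alone (log2 fold change 1.55, SE 0.44, adjusted p = 0.0271), whose call was lost in 4 of 6 fits with a library left out and with only the libraries compared. Col18a1 ran against the others: 61.5, 92.2 and 38.2 CPM in OKMS and 15.6, 19.3 and 10.7 CPM in MKOS cells (log2 fold change -2.13, SE 0.30, adjusted p = 7.87e-06), with no overlap.

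Markers of other cells were measured in the same libraries. In E-CAD+ 2NG- cells the 12 fibroblast genes summed to 210.5, 297 and 468 CPM in OKMS and 827, 579 and 674 CPM in MKOS libraries, with 2 of 12 called higher in MKOS and 0 lower. The macrophage list summed to 239, 288 and 127 CPM and 1512, 778 and 151 CPM, with 0 of 6 called. Their part in the collagen values was not tested.

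**Figure D4:**
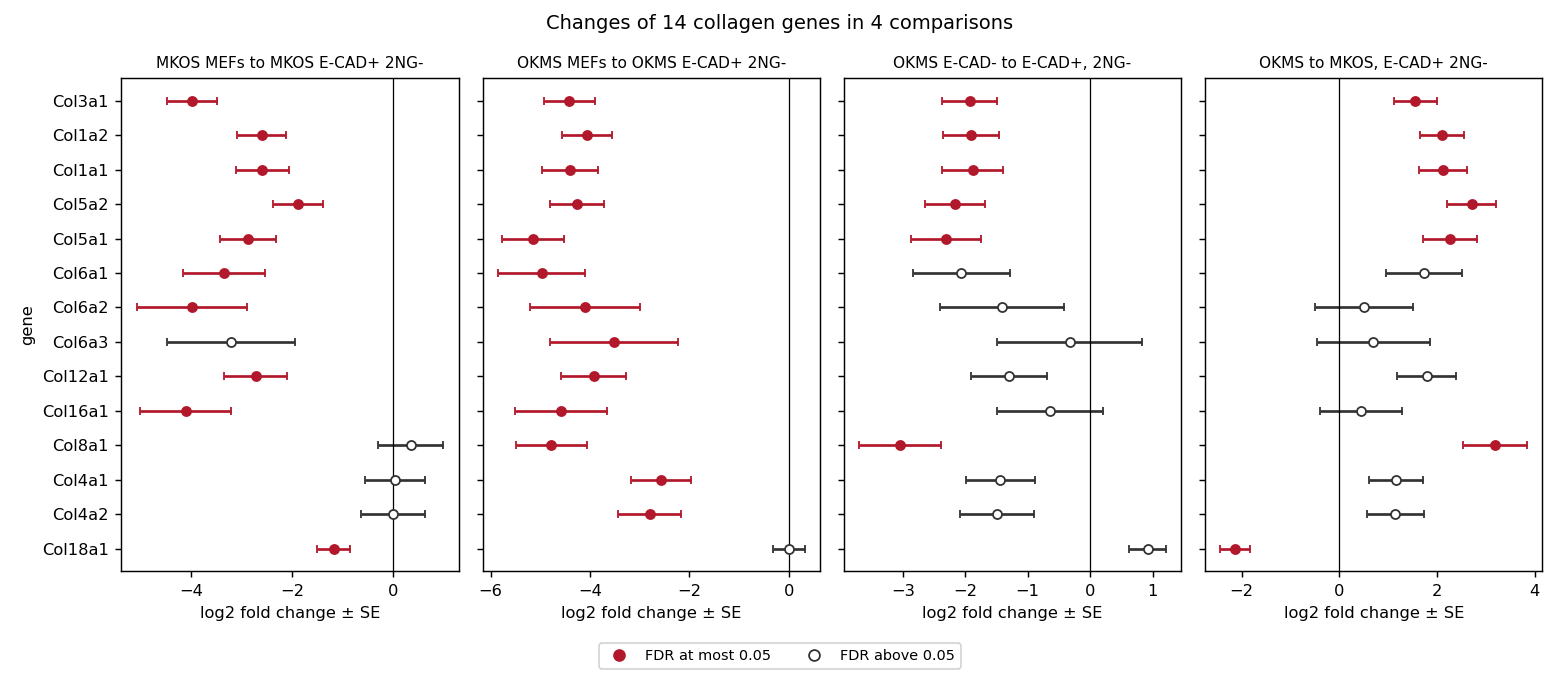
Points give the log2 fold change of 14 collagen genes in 4 comparisons, bars 1 standard error, and filled red points genes with an adjusted p (FDR) at most 0.05. The fibrillar genes in the upper rows lie left of 0 in the MEF comparisons and right of 0 in OKMS to MKOS, Col4a1, Col4a2 and Col8a1 lie near 0 in the MKOS MEF comparison (-0.01 to 0.35) and left of it in the OKMS MEF comparison, and Col18a1 in the last row lies left of 0 in OKMS to MKOS.

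Among E-CAD+ 3NG- cells 2 of 37 collagens were higher in MKOS, beside 2.17% of all transcripts (1.38% higher and 0.787% lower). Col1a2 was 90.9, 97.6 and 33.7 CPM in OKMS and 399, 213 and 189 CPM in MKOS cells (log2 fold change 1.76, SE 0.44, adjusted p = 0.0217), and Col5a2 was 51.8, 41.7 and 18.6 and 203, 112 and 62.4 CPM (log2 fold change 1.66, SE 0.47, adjusted p = 0.0491). Neither overlapped, yet both calls were lost without all the sorted libraries numbered 3, with only the libraries compared and in several fits with a single library left out. In 3NG+ cells the 1 call of 37 (0.685% of all transcripts, 0.345% higher and 0.339% lower) was Col18a1, lower in MKOS. It was 100.3, 87.4 and 82.8 CPM in OKMS and 31.97, 27.3 and 50.05 CPM in MKOS (log2 fold change -1.45, SE 0.29, adjusted p = 0.00707), a call lost without MKOS 3NG+ library 1 or 2. Fibrillar genes spread widely among MKOS 3NG+ libraries, with Col1a2 at 224, 30.8 and 101 CPM, and the error there is too large to show whether the cassettes differed (log2 fold change 0.81, SE 0.44, adjusted p = 0.454).

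Set against each cassette's own MEFs, 1 of 37 collagens differed between the cassettes in its change to E-CAD+ Nanog-GFP- cells, beside 1.43% of all transcripts (0.621% higher and 0.813% lower), while 10 had an unadjusted p under 0.05. This was Col8a1, with a difference of the log2 changes, OKMS minus MKOS, of -4.24 (SE 0.87, adjusted p = 0.0051). Col8a1 started at 93.2 and 98.6 CPM in OKMS MEFs and at 24.1 and 23.9 CPM in MKOS MEFs, so that part of the difference lay in the MEFs themselves. In E-CAD+ 3NG- cells it was 13.7, 19.04 and 6.12 CPM in OKMS and 67.9, 30.4 and 11.2 CPM in MKOS. The call was lost without either MKOS MEF library.

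Along the sort gates few collagens were called. From 2NG- to 3NG- cells of MKOS 1 of 37 was called (0.390% of all transcripts, 0.352% higher and 0.0384% lower), Col18a1, from 15.6, 19.3 and 10.7 to 34.1, 58.1 and 37.5 CPM (log2 fold change 1.42, SE 0.30, adjusted p = 0.0132). In OKMS E-CAD+ cells edgeR called 0 of 37 at this step (0.0384% of all transcripts), as did DESeq2, and 6 had an unadjusted p under 0.05. Col18a1 was 61.5, 92.2 and 38.2 and 44.98, 45.9 and 44.5 CPM there (log2 fold change -0.52, SE 0.29, adjusted p = 0.939). The median log2 fold change of the 37 was 0.22 in MKOS and 0.90 in OKMS, where 27 lay above 0, or 0.23 and 0.71 with genes at 0 reads set at their bound, against 0.00 for all transcripts. A difference between the cassettes in this step was not tested.

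From 3NG- to 3NG+ cells, the gain of Nanog-GFP, OKMS had 2 of 37 called, beside 6.26% of all transcripts (3.06% higher and 3.21% lower). Col4a1 fell from 53.3, 44.3 and 24.7 to 5.30, 11.2 and 3.29 CPM (log2 fold change -2.62, SE 0.62, adjusted p = 0.0073). Col18a1 rose from 44.98, 45.9 and 44.5 to 100.3, 87.4 and 82.8 CPM (log2 fold change 1.21, SE 0.29, adjusted p = 0.00826), with no overlap for either gene, and the call of Col4a1 was lost without OKMS 3NG+ library 1 or 3. In MKOS edgeR called 0 of 37 (1.58% of all transcripts, 0.557% higher and 1.02% lower) and DESeq2 called 1, and 6 had an unadjusted p under 0.05. Col4a1 was 95.8, 65.2 and 41.2 CPM in MKOS 3NG- and 47.7, 8.30 and 11.4 CPM in MKOS 3NG+ cells (log2 fold change -1.49, SE 0.55, adjusted p = 0.16), where library 1 of the 3NG+ cells was high in Col1a2, Col5a2 and Col4a1 alike. Without that library 5 collagens were called. The median over the 37 was -0.91 in MKOS, where 8 lay above 0, and -0.99 in OKMS, where 13 did, or -0.97 and -0.70 with genes at 0 reads set at their bound, against -0.04 and -0.06 for all transcripts.

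Nanog-GFP+ cells had higher levels of fibrillar collagens than established iPSCs. The 3NG+ cells were sorted from wells with doxycycline, vitamin C and WT MEFs, and the iPSCs were established clones without doxycycline. The culture, the other cells in the wells and the stage thus changed together and cannot be told apart. From MKOS 3NG+ cells to MKOS iPSCs without doxycycline 7 of 37 fell and 1 rose, beside 2.14% of all transcripts (1.32% lower and 0.825% higher), and the median was -2.57, or -1.92 over 35 genes with those at 0 reads in 1 group set at their bound and 2 at or under the floor in both groups left out. Col1a2 was 224, 30.8 and 101 CPM and then 0.415 and 0.887 CPM (log2 fold change -7.57, SE 0.79, adjusted p = 2.94e-08). Col5a2 was 102, 21.1 and 30.3 CPM and then 1.35 and 3.19 CPM (log2 fold change -4.54, SE 0.68, adjusted p = 4.78e-05). Col3a1, Col1a1, Col12a1, Col8a1 and Col5a1 also fell, and Col18a1 rose from 31.97, 27.3 and 50.05 to 91.5 and 112 CPM (log2 fold change 1.44, SE 0.31, adjusted p = 0.00752). The call of Col18a1 was lost without MKOS 3NG+ library 2 or MKOS iPSC library 2, that of Col5a1 without MKOS iPSC library 1, that of Col8a1 without MKOS 3NG+ library 1 or MKOS iPSC library 1, and those of Col5a1 and Col8a1 also with only the libraries compared. In OKMS 4 fell and 0 rose, beside 0.614% of all transcripts (0.301% higher and 0.313% lower): Col3a1 (log2 fold change -5.81, SE 0.72, adjusted p = 9.16e-06), Col1a2 (log2 fold change -4.53, SE 0.67, adjusted p = 0.000129), Col1a1 (log2 fold change -3.46, SE 0.69, adjusted p = 0.00751) and Col5a2 (log2 fold change -3.02, SE 0.70, adjusted p = 0.0312). OKMS Col1a2 was 62.8, 76.2 and 41.1 CPM in 3NG+ cells and 3.30 and 1.96 CPM in iPSCs, with no overlap. The call of Col5a2 in OKMS was lost with only the libraries compared and in 4 of 5 fits with a library left out, and that of Col1a1 without OKMS iPSC library 2. Some fibroblast markers were also lower in iPSCs. In MKOS 2 of 12 were called lower and 0 higher, Prrx1 (mean of 8.23 CPM in 3NG+ cells and no read in iPSCs, adjusted p = 0.0016) and Postn (log2 fold change -6.76, adjusted p = 7.66e-05). In OKMS 3 of 12 were called lower and 0 higher, Prrx1 (mean of 7.29 CPM and no read, adjusted p = 0.0195), Postn (log2 fold change -6.27, adjusted p = 0.00253) and Dcn (log2 fold change -4.39, adjusted p = 0.0354). The 12 genes summed to 509, 306 and 504 CPM in MKOS and 517, 307 and 346 CPM in OKMS 3NG+ cells, and to 364 and 155 CPM in MKOS and 190 and 195 CPM in OKMS iPSCs. Most of each sum came from Fn1 and S100a4. Their means were 243 and 114 CPM in MKOS and 184 and 127 CPM in OKMS 3NG+ cells. In iPSCs they were 200 and 47.0 CPM for MKOS and 115 and 63.2 CPM for OKMS. The macrophage list summed to 847, 223 and 67.5 CPM in the MKOS and 65.95, 702 and 40.1 CPM in the OKMS sorted cells and to at most 25.7 CPM in iPSCs, with Lyz2 called lower in MKOS (log2 fold change -6.73, adjusted p = 0.024). The part of either list in the result was not tested.

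Col18a1 was also the 1 collagen of 37 that differed between iPSCs without doxycycline and in 2i, over both cassettes and beside 4.34% of all transcripts (1.89% higher and 2.45% lower). It was 91.5 and 112 CPM in MKOS and 63.3 and 110.3 CPM in OKMS iPSCs without doxycycline, and 45.6 and 32.3 CPM in MKOS and 19.2 and 22.3 CPM in OKMS iPSCs in 2i (log2 fold change -1.82, SE 0.26, adjusted p = 7.69e-06). All 4 libraries in 2i lay below all 4 others. From iPSCs to TNG ESCs of the same cassette Col4a2 and Col4a1 fell, 2 of 37, beside 1.40% of all transcripts (0.269% higher and 1.13% lower). Col4a2 was 2.38 and 17.03 CPM in MKOS and 2.68 and 4.63 CPM in OKMS iPSCs, and 0.196 and 0.145 CPM in TNG MKOS and 0.838 and 1.09 CPM in TNG OKMS ESCs (log2 fold change -3.88, SE 0.72, adjusted p = 0.00119). For Col4a1 (log2 fold change -2.71, SE 0.56, adjusted p = 0.00415) the libraries overlapped, since MKOS iPSC libraries stood at 3.21 and 26.1 CPM and OKMS ESCs at 5.36 and 4.16 CPM, and the call was lost without MKOS iPSC library 2. A list of 10 primitive endoderm genes, a lineage that makes type IV collagen in the embryo, summed to 13.8 to 104.7 CPM in all 10 iPSC libraries and 7.04 to 30.3 CPM in all 8 ESC libraries. These sets are wider than the groups compared, since they include iPSCs in 2i, D6 iPSCs, and TNG and E14 ESCs. The ranges overlapped, and the part of this list in the type IV result was not tested.

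Type VI set the libraries numbered 3 apart. In the 6 Nanog-GFP- populations Col6a1 was 8.71 to 43.3 CPM in the libraries numbered 3 and 0.00 to 14.1 CPM in the 12 others. Col6a3 was 4.002 to 32.7 CPM against 0.00 to 6.28 CPM, and Col6a2 2.59 to 30.8 CPM against 0.322 to 15.9 CPM. Lum (lumican), a proteoglycan that binds fibrils, moved with them at 6.59 to 77.4 CPM against 0.00 to 10.1 CPM, while Lyz2 was lower, at 18.1 to 139 CPM against 232 to 1739 CPM. Col4a1 and Col4a2 had lower medians there, 31.4 against 66.4 CPM and 13.0 against 45.2 CPM, and Col1a2 did not separate, with medians of 164 and 175 CPM. Col3a1 had a higher median in the libraries numbered 3, 208 against 114 CPM, with ranges that overlapped. The labels do not say whether a number marks a shared sort, day or preparation, and OKMS 3NG+ library 1 had the same high Lum (45.4 CPM) and low Lyz2 (56.1 CPM) as the libraries numbered 3. With the 8 sorted libraries numbered 3 left out, a fit added after these values were seen, the counts of called collagens were 13, 11 and 18 for the 3 comparisons of MEFs with 2NG- cells, 6 for E-CAD- to E-CAD+ cells of the 2NG- gate, and 9 for the cassettes in 2NG- cells. The calls of Col1a1 between the E-CAD gates in 2NG- cells, of Col5a2 and Col1a2 between the cassettes in 3NG- cells, of Col3a1 between the E-CAD gates in 3NG- cells, of Col18a1 from MKOS 2NG- to 3NG- cells, of Col22a1 and Col25a1 from MKOS MEFs to 2NG- cells, and of Col24a1 and Col7a1 from OKMS MEFs to E-CAD+ 2NG- cells were lost.

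**Figure D5:**
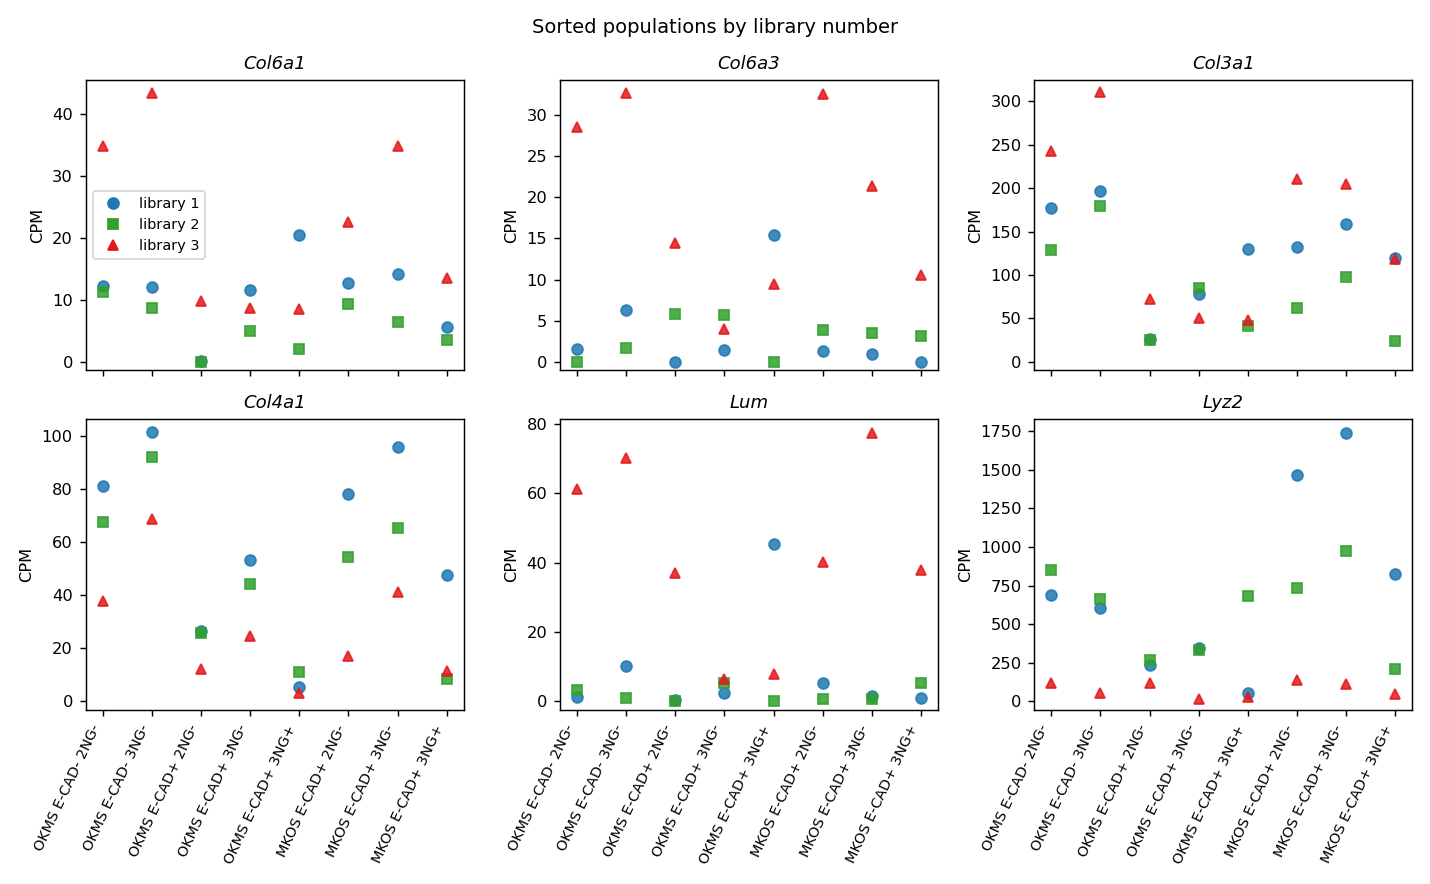
Levels (CPM, linear axes) of 4 collagens, Lum and Lyz2 in the 8 sorted populations, with circles, squares and triangles for the libraries numbered 1, 2 and 3. Triangles lie highest for Col6a3 in 6 of the 8 populations and lowest for Lyz2 in all 8, while for Col4a1 they are lowest in 7 of 8.

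The genes that fold, trim, link and bind collagen went largely the same way as the collagens, with exceptions. Of 20 folding and modification genes 14 fell and 0 rose from MKOS MEFs to MKOS E-CAD+ 2NG- cells, and 17 fell and 0 rose from OKMS MEFs to OKMS E-CAD+ 2NG- cells. Of all transcripts 12% were lower and 15.0% higher in the first comparison, and 13.5% and 15.7% in the second. Serpinh1, the HSP47 chaperone, was 741 and 727 CPM in MKOS MEFs and 159, 78.4 and 81.6 CPM in the sorted cells (log2 fold change -2.82, SE 0.42, adjusted p = 2.22e-06), and 47.04, 53.8 and 78.1 CPM in OKMS E-CAD+ 2NG- cells (log2 fold change -3.49, SE 0.43, adjusted p = 5.32e-08, from OKMS MEFs). The other largest falls in MKOS were Creb3l1 (log2 fold change -3.25, SE 1.15, adjusted p = 0.0321), a transcription factor of the secretory pathway, P4ha2 (log2 fold change -2.40, SE 0.64, adjusted p = 0.00416), a prolyl hydroxylase chain, and Leprel2 (log2 fold change -2.38, SE 0.66, adjusted p = 0.00552). Of 12 tested processing and crosslinking genes 5 fell in MKOS and 8 in OKMS, with Lox, the lysyl oxidase that crosslinks fibrils, at 105, 49.3 and 29.9 CPM in MKOS and 9.71, 6.12 and 7.34 CPM in OKMS cells. Pcolce2, an enhancer of procollagen trimming, was the 1 of the 12 that rose in MKOS (log2 fold change 5.55, SE 0.76, adjusted p = 4.35e-07). Of 8 receptors 4 fell in each cassette, with Ddr2 and Mrc2, receptors for fibrillar collagen and for its uptake, in both. Of 9 tested fibril-associated matrix genes 7 fell in each, led by Tgfbi (log2 fold change -5.66, SE 0.67, adjusted p = 2.35e-08 in MKOS).

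Between the cassettes in E-CAD+ 2NG- cells these genes were higher in MKOS wherever they were called: 4 of 20 folding genes, 4 of 12 processing genes, 1 of 8 receptors (Itgb1) and 5 of 9 matrix genes, beside 2.84% of all transcripts. Dcn, Lum, Fn1 and Postn are in both the matrix list and the fibroblast list, so the counts of these lists are not independent. Pcolce was 19.1, 42.6 and 16.2 CPM in OKMS and 452, 356 and 285 CPM in MKOS cells (log2 fold change 3.78, SE 0.42, adjusted p = 4.48e-08), a level in MKOS close to that of MKOS MEFs at 387 and 345 CPM. Bmp1, the procollagen C-proteinase (log2 fold change 2.99, SE 0.69, adjusted p = 0.00533), Lox (log2 fold change 2.89, SE 0.64, adjusted p = 0.0038), Thbs1 (log2 fold change 3.00, SE 0.90, adjusted p = 0.0412) and Dcn, the fibril-binding proteoglycan decorin (log2 fold change 2.60, SE 0.66, adjusted p = 0.0127), were among the others. At the end points 17 of 20 folding genes, 9 of 12 processing genes, 6 of 8 receptors and 9 of 9 matrix genes were lower in ESCs than in MEFs, with Pcolce2 the 1 gene called higher, beside 25.0% of all transcripts lower and 26.0% higher.

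The reads of chains that share a molecule were set against each other. Over the 32 libraries with at least 20 reads of each of the 2 chains, Col1a1 to Col1a2 had a median ratio of 0.650 (range 0.443 to 1.89), with 0.650 in MEFs, 0.651 in OKMS and 0.659 in MKOS Nanog-GFP- cells. Of the iPSC libraries only 2 passed, at 0.724 and 1.89. The limit left out more uneven ones, such as OKMS iPSC library 1 in 2i with 52 reads of Col1a1 and 10 of Col1a2. Over MEFs and the OKMS and MKOS Nanog-GFP- cells, the medians of this type I pair lay closest together among the pairs compared here. This does not hold with the iPSCs, where its median was 1.31. Col6a1 to Col6a2, chains of type VI, ranged from 0.760 to 6.45 over 19 libraries, with medians of 2.09 in MEFs, 1.65 in OKMS and 3.09 in MKOS Nanog-GFP- cells. Col4a1 to Col4a2 had a median of 1.56 over 37 libraries (0.829 to 4.38). Their genes lie head to head on chromosome 8 (GRCm38 RefSeq spans 11198423 to 11312889, minus strand, and 11312805 to 11449287, plus strand), their RefSeq starts in the promoter table overlap by 22 bases, and whether counting used strand is not given in the sources used here, so reads near that end cannot be told apart. Col3a1 and Col5a2, neighbours on chromosome 1 (45311538 to 45349706, plus strand, and 45374331 to 45503282, minus strand), belong to different molecules and had a ratio of 0.685 to 8.06 over 30 libraries, with medians of 3.42 in MEFs, 2.27 in OKMS and 0.829 in MKOS Nanog-GFP- cells. In MKOS Nanog-GFP- cells this ratio split by library number, with a range of 0.685 to 3.95. Libraries 1 and 2 had fewer reads of Col3a1 than of Col5a2. Those numbered 3 had 1555 and 394 reads in 2NG- cells and 1793 and 546 reads in 3NG- cells. In all, 18 of the 43 genes lie in 10 pairs of neighbours within 500 kb. Col6a2, Col6a1 and Col18a1 follow each other on chromosome 10 on the minus strand, with their lower ends 113 and 343 kb apart, and Col6a1 and Col18a1 went opposite ways between MEFs and ESCs: log2 fold change -10.57, SE 1.12, adjusted p = 2.79e-10 for Col6a1 and 1.74 for Col18a1.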

How the data were processed

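The data were STRT libraries, which tag and count the 5′ ends of polyadenylated transcripts, from sorted reprogramming cells, MEFs, iPSCs and ESCs. The authors aligned the reads and deposited 1 table of raw read counts per feature for the 48 libraries. The processing notes name Bowtie 0.12.7 and mm10, while the study's methods name another mouse build, and the positions of the 43 genes matched GRCm38 (mm10). No molecular identifiers are named, so that intervals and floors cover counting error only. Reads with several positions were included, and 95.2 to 100% of the reads of each collagen gene had 1 position. Repeats, which held 20.2% of reads, and spike-in RNAs, which held 0.0594%, were left out. No column of per-sample values was left unused.

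CPM were computed over the 24264 transcript rows. Counts were tested with edgeR 4.0.16 in R 4.3.3 (quasi-likelihood F test, TMM factors, filterByExpr by condition), with 1 coefficient for each of 20 conditions in all 48 libraries, so that the conditions share 1 estimate of the spread. Adjusted p-values are Benjamini-Hochberg values over 15630 transcripts, called at 0.05. A log2 fold change is the second group minus the first as named in the text. The same functions were also run on simulated counts of MKOS and OKMS E-CAD+ 2NG- libraries, without the filter and with no effect of library number. Known changes were put only into genes above a limit of expected reads. That run therefore does not bear on low collagens or on the library numbers. A group without a read was given a bound from 3 reads over the group. Tables were handled in Python 3.11.15 with pandas 2.3.3, and figures drawn with matplotlib 3.10.9.

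Alternatives were DESeq2 size factors, library size alone, no filter on low counts, a replicate block, only the libraries compared, the Wald test of DESeq2 1.42.0, and each library left out in turn, the last with the dispersion trend of the full fit. The members, gene lists and tests were chosen with earlier results of these data known. Named with values are the 12 genes of highest mean level, a representative of each main class, and in each comparison up to 8 called genes in each direction by size of change. All reported tests treated the libraries as unpaired. Deviations of libraries with the same number correlated at over 0.1 in every pair for MKOS 2NG- and 3NG- cells only (lowest correlation 0.104 over 3 pairs). A block on the number also gave 1 call there. That block was a common effect of the number over all libraries, not a pairing of these cells alone. No label explains the numbers.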

Additional observations from a re-analysis of the deposited data

Results flagged for a closer look

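Col8a1 did not change alike in both cassettes. Going from MEFs to E-CAD+ cells without Nanog-GFP, its log2 change was lower in OKMS than in MKOS, with a difference of -4.24 (edgeR interaction contrast, SE 0.87, adjusted p = 0.0051). The test used 6 sorted libraries and 2 MEF libraries of each cassette. The difference was not called without either MKOS MEF library, and the cause was not tested.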

How the results depend on the processing

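Of 70 named results, 0 changed direction in any alternative and 44 were called in every planned one, while DESeq2 gave no adjusted p for Col22a1 and Col25a1 from MKOS MEFs to 2NG- cells. Of 129 alternative counts of called collagens 95 were within 1.5 times the reported count. Without the filter on low counts, more genes were tested and the counts were 16 (OKMS MEFs to E-CAD- 2NG-), 11 and 7 (OKMS E-CAD- to E-CAD+ in 2NG- and 3NG-), 12, 6 and 8 (OKMS to MKOS in 2NG-, 3NG- and 3NG+), 3 (OKMS 2NG- to 3NG-), 6 and 9 (3NG- to 3NG+ in MKOS and OKMS), 13 and 9 (3NG+ to iPSCs), 6 (iPSCs to 2i), 8 (iPSCs to ESCs), 1 (WT MEFs to the others) and 7 (cassette difference in the change from MEFs). With DESeq2 size factors OKMS to MKOS in 3NG- gave 1, and with library size alone MKOS 3NG- to 3NG+ gave 1. Library size alone moved the median of all transcripts by up to -0.27 (OKMS 3NG- to 3NG+). DESeq2's Wald test gave 0 for E-CAD- to E-CAD+ in 3NG-, 1 for MKOS 3NG- to 3NG+ and 2 for iPSCs to 2i. With only the libraries compared, the counts were 16 (OKMS MEFs to E-CAD- 2NG-), 2 (E-CAD- to E-CAD+ in 3NG-), 1 (OKMS to MKOS in 3NG-), 0 (MKOS 2NG- to 3NG-), 1 (MKOS 3NG- to 3NG+) and 1 (WT MEFs to the others). With a replicate block they were 1 (MKOS 3NG- to 3NG+) and 2 (cassette difference), and in no other comparison did the block move the count by over 1.5 times. Same-numbered sorted libraries correlated at -0.0414 to 0.352 over 84 pairs. They were over 0.1 in every pair for MKOS 2NG- and 3NG- cells and positive in every pair, some under 0.1, for OKMS 2NG- to 3NG-, both E-CAD comparisons and OKMS to MKOS in 3NG-, and what a number shares is not given by the labels. Without all sorted libraries numbered 3, an alternative chosen after seeing the data, the counts were 0 (E-CAD- to E-CAD+ and OKMS to MKOS in 3NG-, MKOS 2NG- to 3NG-), 1 (OKMS 2NG- to 3NG-, MKOS 3NG- to 3NG+) and 4 (cassette difference). With 1 library left out the counts ran from 10 to 12, 8 to 9 and 13 to 16 for MEFs to MKOS, OKMS E-CAD- and OKMS E-CAD+ 2NG- cells, 1 to 9 and 0 to 0 for E-CAD- to E-CAD+ in 2NG- and 3NG-, 4 to 8, 0 to 3 and 0 to 1 for OKMS to MKOS in 2NG-, 3NG- and 3NG+, 0 to 1 for each cassette from 2NG- to 3NG-, 0 to 5 and 1 to 3 for MKOS and OKMS 3NG- to 3NG+, 6 to 9 and 2 to 4 for 3NG+ to iPSCs, 1 to 1 for 2i, 1 to 3 for iPSCs to ESCs, 22 to 25 for MEFs to ESCs, 0 to 0 among MEFs and 0 to 1 for the cassette difference. Col18a1 between the cassettes in 3NG+ cells was lost without MKOS 3NG+ library 1 or 2, and from MKOS 2NG- to 3NG- without 2NG- library 1 or 3 or 3NG- library 2. The cause of these shifts was not tested. Depth limits the low collagens, since 3 reads correspond to 0.212 to 2.10 CPM.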

Other observations

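Lists of genes of other cell types that make or border collagen matrix were summed in each library. A list of 4 keratinocyte genes summed to 6.10 to 160 CPM in the 6 MKOS Nanog-GFP- libraries, to at most 23.6 CPM in the 12 OKMS Nanog-GFP- libraries and to at most 2.66 CPM in MEFs. In MKOS this sum rested on Krt14, with means of 87.0 CPM in 2NG- and 55.2 CPM in 3NG- cells. Krt5 and Krt15 had means of at most 0.685 CPM there, so that the list as a whole was not raised. Col17a1, a keratinocyte collagen, was highest in OKMS E-CAD+ 2NG- cells. A list of 8 epithelial genes summed to 13.9 to 40.5 CPM in MEFs, to 105 to 1384 CPM in OKMS and to 783 to 1457 CPM in MKOS Nanog-GFP- cells.

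A list of 6 chondrocyte genes summed to 17.5 to 41.9 CPM in MEFs and to at most 14.02 CPM elsewhere, and 5 skeletal muscle genes to 16.5 to 39.7 CPM in MEFs and to at most 19.6 CPM elsewhere, so that the MEFs carried low levels of genes of both tissues. A list of 6 endothelial genes summed to 1.28 to 5.15 CPM in MEFs and to 5.64 to 49.4 CPM in all other libraries. Different single genes led this sum in different cells, so that it does not show a shared endothelial profile. In MKOS E-CAD+ 2NG- cells Tie1 had a mean of 26.2 CPM and Pecam1 of 2.03 CPM. In MKOS iPSCs without doxycycline Tie1 had 1.06 CPM and Pecam1 22.9 CPM.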
